A study of Mus musculus with 4 samples.

Results

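The phagocyte NADPH oxidase is a source of reactive oxygen species (ROS), and 6 of its subunit genes were followed through RNA-seq libraries of WT and GRK6-/- mice. The genes were Cybb, Cyba, Ncf1, Ncf4, Rac1 and Rac2, taken by symbol from the deposited tables, and all 6 had a row in each of the 4 libraries. They are 6 of 12417 genes with a value. Each library was 1 pool of amplified cDNA from 13 to 15 sorted bone marrow cells of 3 to 4 C57BL/6 mice, for which the labels give no age. In both genotypes HSC were sorted as Lin-c-kit+sca-1+ cells, a gate that holds hematopoietic stem cells, and CLP, common lymphoid progenitors by label, by adding Il-7Ra+ to that gate. GRK6-/- mice lack GRK6, a kinase of G protein-coupled receptors, through an inherited deletion of exons shared by its splice variants, WT mice were littermates, and the labels name no treatment. With 1 library per group there were no replicates, so no difference below carries an estimate of the variation between mice or cells.

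In phagocytes the oxidase transfers electrons from NADPH across a membrane to oxygen and so makes superoxide. Its catalytic core sits in the membrane as a pair of proteins, gp91phox from Cybb and p22phox from Cyba, and each stabilises the other. In resting cells regulatory subunits, among them p47phox from Ncf1 and p40phox from Ncf4, lie in the cytosol. On stimulation they move to the membrane together with a small GTPase, Rac1 or Rac2, and switch the core on. Rac2 is the form typical of blood cells, whereas Rac1 is made in most tissues and also serves cell adhesion and the cytoskeleton. Low levels of ROS act as signals in stem cells, and high levels are linked to loss of self-renewal.

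The values are FPKM, fragments scaled to transcript length and to the mapped fragments of the library. The cDNA was primed from poly(dT) and amplified, and whether fragments covered transcripts evenly was not tested. Levels of different genes are therefore compared only approximately. The tables held between 10056 and 11060 rows. Steps in the lowest values placed the scaling at about 2770000 to 4390000 fragments per library. The estimate was chosen so that low values lay near whole numbers of fragments. The 70.0% to 80.6% that did so are therefore no check of it, and they came from only 103 to 160 genes per library. The paper reports more sequenced reads than these fragment numbers for each lineage and does not state how many were mapped. Fragment numbers and counting intervals below are therefore approximate. Il7r, which codes for the receptor chain used in the CLP gate, had 120.1 FPKM in WT CLP and 75.1 FPKM in GRK6-/- CLP, against 1.08 FPKM in GRK6-/- HSC and no row in WT HSC. Kit was present in all 4 libraries, at 26.2 to 81.8 FPKM, whereas Ly6a, which codes for Sca-1, was named only in rows with several genes and was not used. Lymphoid progenitor markers summed to 174 FPKM in WT HSC and 121 FPKM in GRK6-/- HSC. In CLP they summed to 2756 FPKM in WT and 1995 FPKM in GRK6-/-. Most of the CLP sums came from Ly6d and Dntt, and single markers went both ways between the CLP libraries. Rag2 had 94.5 FPKM in WT CLP and no row in GRK6-/- CLP, and Rag1 had 23.0 and 2.47 FPKM. In contrast, Ebf1 had 25.0 FPKM in WT CLP and 82.0 FPKM in GRK6-/- CLP, and Notch1 had no row and 2.71 FPKM. Grk6 had 42.7 FPKM in WT HSC, 89.4 FPKM in GRK6-/- HSC, 26.9 FPKM in WT CLP and 57.6 FPKM in GRK6-/- CLP. It was thus higher in both libraries labelled GRK6-/-, and because the value covers the whole gene, including exons outside the deletion, it does not check the genotype. Every direction between genotypes below is therefore given as labelled. In pooled cells, a smaller number of cells making a transcript and less transcript per cell cannot be told apart.

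In mm9 the genes lie on chromosomes X, 5, 8 and 15, by the GENCODE vM1 annotation. Cybb (Entrez Gene 13058) is on the minus strand of chromosome X from 9012378 to 9064897, and its longest protein-coding transcript has 13 exons and 4752 bp. Cyba (13057) is on the minus strand of chromosome 8 from 124948672 to 124956840, with 6 exons and 758 bp. Ncf1 (17969) and Rac1 (19353) are both on the minus strand of chromosome 5, from 134695923 to 134705495 and from 144266346 to 144288904. Ncf4 (17972), the only one on the plus strand, is on chromosome 15 from 78075231 to 78093010, and Rac2 (19354) is on the minus strand of the same chromosome from 78389599 to 78403213. No row of another gene overlapped the loci of the 6 genes in any of the libraries.

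Promoters are shown for Cybb and Cyba, whose products pair in the membrane and whose RNA was lowest in WT CLP, and for Ncf1, which was highest there. The RefSeq promoter table (GRCm38.p6) had entries for these 3 of the 6 genes. The windows run from 250 bases before the start of transcription to 30 bases after it, on the minus strand, at chrX:9469295-9469574 for Cybb, chr8:122432911-122433190 for Cyba and chr5:134229596-134229875 for Ncf1. Capitals mark GAGGAA on either strand, a sequence bound by PU.1, an ETS factor of myeloid and lymphoid cells. Other sequences that PU.1 may bind were not searched or marked.
Cybb: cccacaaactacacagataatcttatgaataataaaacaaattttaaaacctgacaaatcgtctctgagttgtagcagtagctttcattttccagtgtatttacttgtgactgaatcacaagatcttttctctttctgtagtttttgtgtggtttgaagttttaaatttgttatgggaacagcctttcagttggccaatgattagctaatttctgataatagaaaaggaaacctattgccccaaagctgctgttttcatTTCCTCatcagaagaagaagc
Cyba: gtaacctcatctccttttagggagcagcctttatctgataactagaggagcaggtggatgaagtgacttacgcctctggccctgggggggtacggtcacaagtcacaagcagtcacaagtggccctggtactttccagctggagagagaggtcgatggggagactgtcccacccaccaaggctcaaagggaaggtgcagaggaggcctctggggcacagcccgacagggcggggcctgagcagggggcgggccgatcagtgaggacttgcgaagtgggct
Ncf1: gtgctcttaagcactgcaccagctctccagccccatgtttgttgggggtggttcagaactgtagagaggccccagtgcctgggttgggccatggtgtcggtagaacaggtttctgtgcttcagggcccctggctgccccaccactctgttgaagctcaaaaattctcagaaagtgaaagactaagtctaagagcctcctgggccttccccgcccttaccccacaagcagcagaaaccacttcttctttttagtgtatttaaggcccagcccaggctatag
The motif occurred once in the Cybb window, on its opposite strand, at base 10 after the start. It did not occur in the windows of Cyba and Ncf1. Of all 32851 windows of this length in the table, 26.0% held it, so a match in 1 of 3 is no more than a description. PU.1 itself, listed under its older symbol Sfpi1, had 133.0 FPKM in WT HSC, 201.9 FPKM in GRK6-/- HSC, 177.4 FPKM in WT CLP and 72.8 FPKM in GRK6-/- CLP. Its lowest level was thus in GRK6-/- CLP, the library in which Cybb was highest and Ncf1, at 11.7 FPKM, was lowest. Any part of PU.1 in these levels was not tested.

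The 6 genes differed widely in level and in how far they varied. Rac2 and Rac1 were high and nearly flat, Cyba was high and variable, Ncf4 and Ncf1 were intermediate, and Cybb was the lowest in 3 of the 4 libraries. Rac2 had 245.5 FPKM in WT HSC, 229.5 FPKM in GRK6-/- HSC, 206.8 FPKM in WT CLP and 185.0 FPKM in GRK6-/- CLP. Rac1 had 134.9, 128.9, 102.9 and 113.6 FPKM in the same order of libraries. The highest Rac2 value was 1.33 times the lowest, and the highest Rac1 value 1.31 times the lowest. On the log2(FPKM + 1) scale the ranges were 0.41 for Rac2 and 0.39 for Rac1, whereas the median range of 11230 genes with at least 1 FPKM in some library was 1.97. Only 2.02% of those genes had a smaller range than Rac2 and 1.75% a smaller range than Rac1. Low genes vary more, and among the 790 genes with a mean of at least 100 FPKM, where the median range was 1.04, the shares were 9.11% and 8.10%. The ratio of Rac2 to Rac1 FPKM stayed between 1.63 and 2.01.

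**Figure D1:**
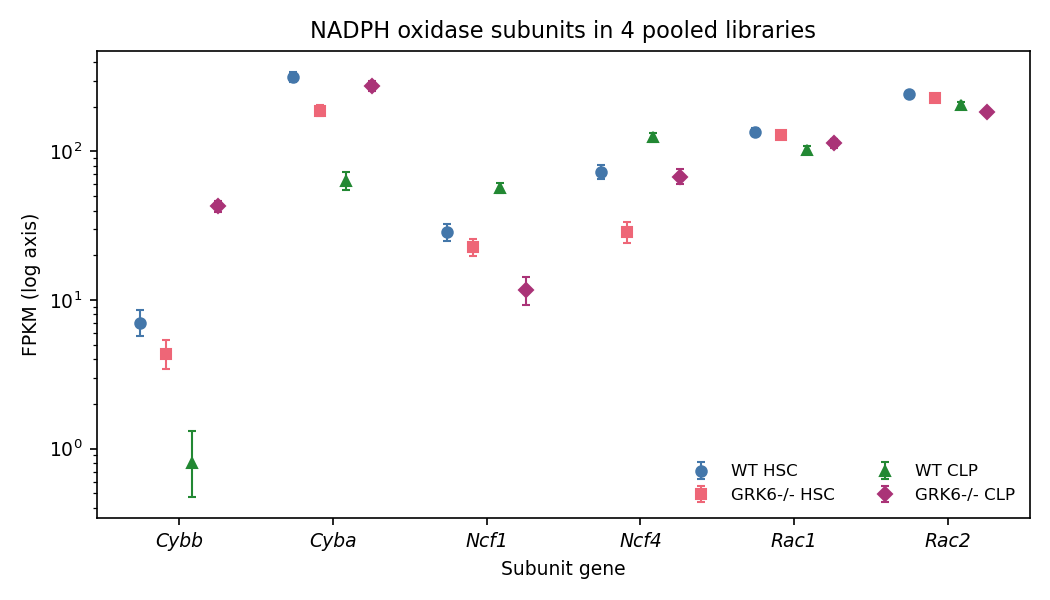
FPKM (log axis) of the 6 subunit genes in the WT and GRK6-/- libraries of HSC and CLP, 1 point per library. Bars are 95% Poisson intervals of the estimated fragments and cover counting error only. Rac1 and Rac2 points lie close together, whereas Cybb runs from 0.802 FPKM in WT CLP to 42.9 FPKM in GRK6-/- CLP.

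Cyba had 318.4 FPKM in WT HSC, 187.5 FPKM in GRK6-/- HSC, 63.6 FPKM in WT CLP and 276.8 FPKM in GRK6-/- CLP. WT CLP stood lowest, WT HSC 5.01 times and GRK6-/- CLP 4.36 times above it. Cybb was likewise lowest in WT CLP but highest in GRK6-/- CLP, with 7.05 FPKM in WT HSC, 4.32 FPKM in GRK6-/- HSC, 0.802 FPKM in WT CLP and 42.9 FPKM in GRK6-/- CLP. Its lowest value stood for about 17 fragments (95% Poisson interval 0.475 to 1.31 FPKM) and its highest for about 565 fragments (39.4 to 46.6 FPKM). Intervals here cover the counting of amplified fragments only, which are not independent molecules. Of the 11230 genes, 94.7% had a smaller range over the libraries than Cybb and 60.8% a smaller range than Cyba.

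Ncf4 had 72.8 FPKM in WT HSC, 28.7 FPKM in GRK6-/- HSC, 124.4 FPKM in WT CLP and 67.7 FPKM in GRK6-/- CLP. Ncf1 had 28.6 FPKM in WT HSC, 22.6 FPKM in GRK6-/- HSC, 57.0 FPKM in WT CLP and 11.7 FPKM in GRK6-/- CLP. Both were highest in WT CLP, the library in which Cybb and Cyba were lowest. Within a library, neighbours in the order of levels were apart by more than their counting intervals, except Ncf4 and Ncf1 in GRK6-/- HSC and Cyba and Ncf1 in WT CLP. Cyba ranked first in WT HSC and GRK6-/- CLP and took the fourth place in WT CLP, where Ncf4 stood above Rac1. Among genes with a row, Cybb stood above 10.3% in WT CLP and above 80.3% in GRK6-/- CLP.

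The first comparison asked what loss of GRK6 did to these genes in HSC. All 6 values were lower in GRK6-/- HSC than in WT HSC, where 48.2% of all genes were lower, but only Ncf4 was past a 2-fold difference. Its level was 2.54 times lower in GRK6-/- HSC, a log2 ratio of -1.31 when 1 is added to each FPKM. The log2 ratios of the others were -0.76 for Cyba, -0.60 for Cybb, -0.32 for Ncf1, -0.10 for Rac2 and -0.06 for Rac1. Thus 1 of 6 members passed 2-fold, compared with 37.4% of the 11624 genes with a row in either HSC library, which is a smaller share than the background. The median log2 ratio was -0.46 for the 6 genes and 0.05 for all genes. For Ncf4, 26.8% of all genes had a larger difference. Of 13 neutrophil and monocyte markers, 6 were lower and 1 higher past 2-fold, beside 18.0% lower and 19.3% higher among all genes. The higher one was Csf1r (log2 ratio 2.73), and Lyz2 (0.48) was higher by less than 2-fold. The summed level of the list, over 15 of 16 genes with a row in some library, was 18021 FPKM in WT HSC and 11482 FPKM in GRK6-/- HSC. Elane, the neutrophil elastase gene and the highest of that list, had 7008 and 5000 FPKM, and Ltf, Ngp and Ly6g had no row in either HSC library. Platelet markers summed to 149 FPKM in WT HSC and 13.1 FPKM in GRK6-/- HSC, and erythroid markers to 38.1 and 746 FPKM. The part of these cells in the lower oxidase values was not tested.

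In CLP 3 of the 6 genes were past 2-fold, no larger a share than the 50.0% among all genes. Both membrane subunits were higher in GRK6-/- CLP, both cytosolic members were lower, though Ncf4 by less than 2-fold, and both Rac genes were nearly level. Cybb was 53.5 times higher in FPKM, a log2 ratio of 4.61 after adding 1, and 2.54% of all genes had a larger difference. Cyba was 4.36 times higher (log2 ratio 2.11) and Ncf1 was 4.89 times lower (log2 ratio -2.20). Ncf4 was 1.84 times lower, with a log2 ratio of -0.87 that 54.7% of genes exceeded in size. Rac1 had a log2 ratio of 0.14 and Rac2 of -0.16. Since that background, over the 11191 genes with a row in either CLP library, equals the share of the members, the count is no result about these genes. For Cyba and Ncf1, 22.9% and 21.3% of genes had a larger difference.

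Markers of several other cell types also differed between the CLP libraries. The neutrophil and monocyte list summed to 9442 FPKM in WT CLP and 7924 FPKM in GRK6-/- CLP. Within it, Camp and Ngp, genes of late neutrophil granules, had 68.0 and 44.7 FPKM in GRK6-/- CLP and no row in WT CLP. In contrast, S100a9, Csf1r, Itgam, Cd14 and Ltf had a row in WT CLP and none in GRK6-/- CLP. Ly6g had no row in any library. B lineage markers, 5 of 7 with a row, summed to 90.3 FPKM in WT CLP and 886 FPKM in GRK6-/- CLP, led by Vpreb1, Igll1 and Cd79b, while Pax5 and Ms4a1 had no row in any library. Macrophage and dendritic markers, 4 of 6 used, summed to 54.3 and 538 FPKM, of which Cd74, made by all cells that present antigen on MHC class II, gave 482.8 FPKM in GRK6-/- CLP. Erythroid markers, 6 of 9, summed to 19.8 and 17533 FPKM, almost all of it Hba-a2. Platelet markers, 5 of 5, summed to 13.5 and 117 FPKM, with Ppbp at no row in either CLP library. T lineage markers, 5 of 6, summed to 29.4 and 39.3 FPKM, mostly Lck, with no row for Cd3e, Cd3d and Cd8a in either. The part of any of these cells in the Cybb, Cyba and Ncf1 differences was not tested.

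**Figure D2:**
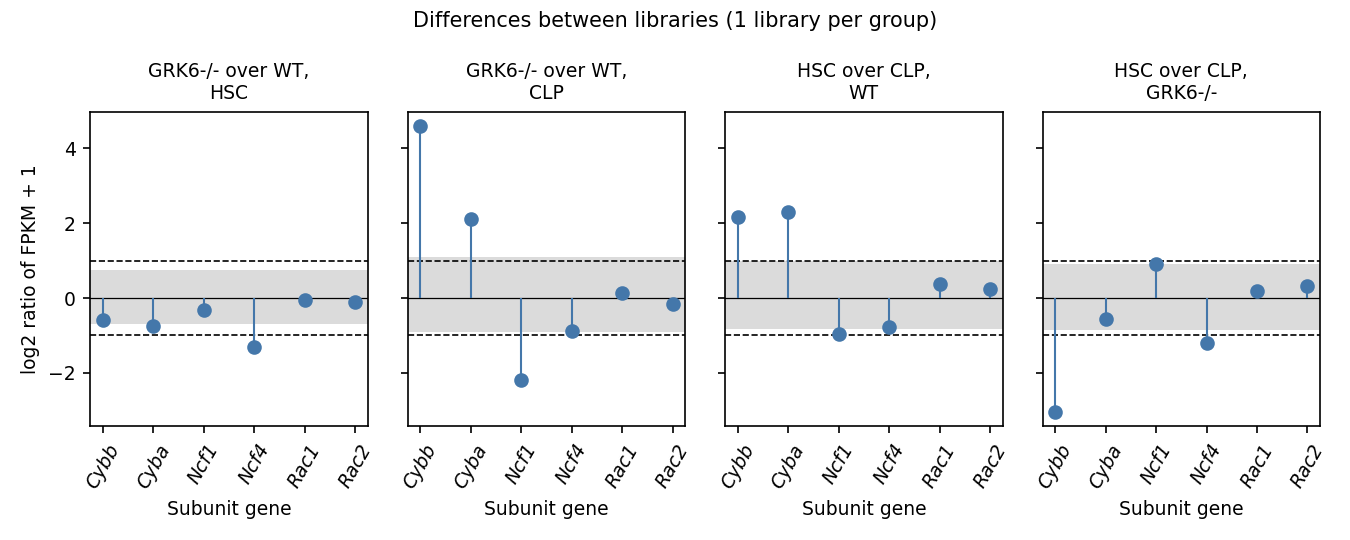
The log2 ratio of FPKM + 1 for the 6 subunit genes in each of the 4 comparisons, 1 library per group. Dashed lines mark 2-fold and the grey band runs from the lower to the upper quartile of all genes. Cybb and Cyba lie above the band in GRK6-/- over WT CLP and in WT HSC over WT CLP. Other points lie below it, among them Ncf1 in GRK6-/- over WT CLP and Cybb in GRK6-/- HSC over GRK6-/- CLP. The Rac genes stay near 0 throughout.

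The populations were compared next within each genotype. In WT, the membrane subunits were higher in HSC, where Cybb was 8.79 times (log2 ratio of FPKM + 1, 2.16) and Cyba 5.01 times (2.31) its level in CLP. Ncf1 and Ncf4 were lower in WT HSC than in WT CLP, with log2 ratios of -0.97 and -0.76. Rac1 and Rac2 had log2 ratios of 0.39 and 0.25. Thus 2 of 6 genes passed 2-fold, against 46.5% of 11202 genes. Differences larger than those of Cybb and Cyba were found in 17.6% and 15.2% of genes. The low end for Cybb rests on about 17 fragments in WT CLP. The neutrophil and monocyte markers summed to 18021 FPKM in WT HSC and 9442 FPKM in WT CLP, but single genes went both ways. Of 14 compared, 5 were higher and 4 lower past 2-fold in WT HSC, beside 24.7% and 21.8% of all genes. Platelet markers summed to 149 and 13.5 FPKM, and the 3 with a row in either library were higher past 2-fold in WT HSC. Gp1bb and Ppbp of that list had no row in WT HSC or WT CLP. The part of these cells in the result was not tested.

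In GRK6-/- mice Cybb was lower in HSC than in CLP, the reverse of WT, whereas Cyba did not reach 2-fold. Cybb was 9.94 times lower in HSC (log2 ratio of FPKM + 1, -3.05), and Cyba had a log2 ratio of -0.56 that 65.3% of genes exceeded in size. Ncf4 was 2.36 times lower in HSC, with a log2 ratio of -1.21, and Ncf1 was 1.94 times higher, with 0.90. Rac1 and Rac2 had log2 ratios of 0.18 and 0.31. Again 2 of 6 genes passed 2-fold, beside 45.6% of 11708 genes. All comparisons with a CLP library share WT CLP or GRK6-/- CLP with another, so the Cybb reversal repeats the CLP difference and is not separate evidence.

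The balance between membrane and cytosolic transcripts follows from these values and is as approximate as any comparison between different genes here. The FPKM of Cybb and Cyba together was 3.21 times that of Ncf1 and Ncf4 together in WT HSC and 3.73 times in GRK6-/- HSC. In WT CLP it was 0.355 times and in GRK6-/- CLP 4.03 times. By FPKM, WT CLP alone had a higher level of the cytosolic members than of the membrane pair. Within the pair, Cyba exceeded Cybb 45.2-fold in WT HSC, 43.4-fold in GRK6-/- HSC and 79.3-fold in WT CLP, but 6.45-fold in GRK6-/- CLP. The Rac genes summed to 380.4, 358.4, 309.6 and 298.6 FPKM in the order of libraries used above.

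**Figure D3:**
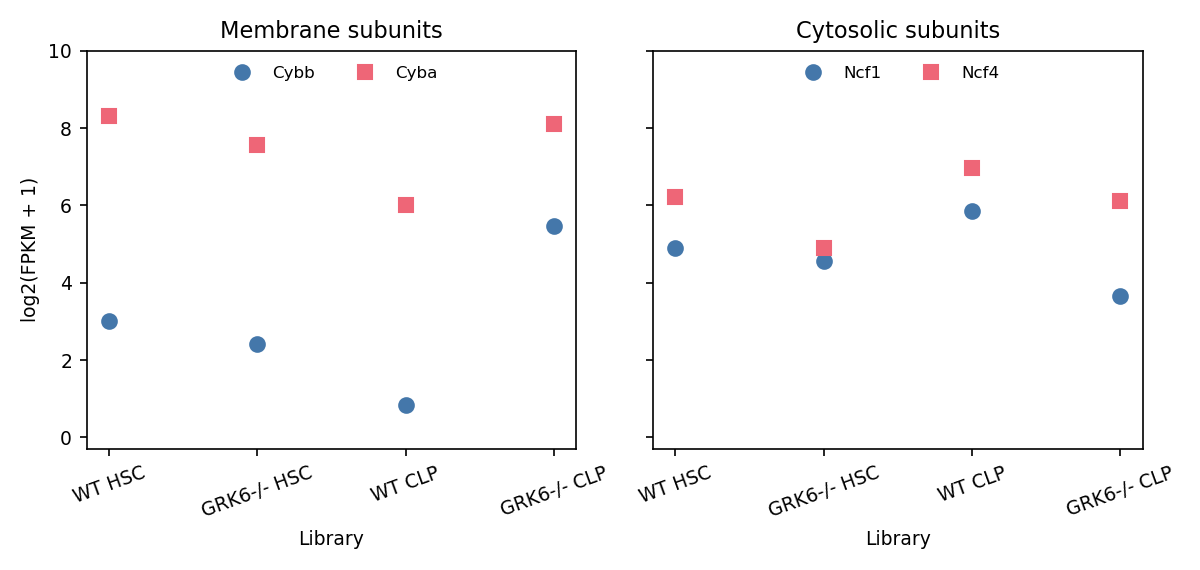
Level of the membrane subunits (Cybb, Cyba; left) and the cytosolic subunits (Ncf1, Ncf4; right) as log2(FPKM + 1) in each library, 1 point per gene and library. The membrane pair is lowest in WT CLP, and both cytosolic genes are lower in the GRK6-/- library than in the WT library of the same population.

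The fit across all genes that the libraries allow is an additive limma model with genotype and population, which leaves 1 residual degree of freedom. It holds only how far the genotype difference changed between HSC and CLP, and limma pulls its spread toward that of other genes. The errors and p-values below thus do not measure variation between mice or cells. A high p is no evidence that a gene did not differ. For a genotype difference common to HSC and CLP, 0 of 11230 genes (0%) passed an adjusted p-value of 0.05, and 500 had an unadjusted p under 0.05. Among the 6 members the lowest unadjusted p from limma was that of Cybb, 0.157, with an adjusted p of 0.999. Its estimate, 2.0 ± 1.29 (SE) on the log2 scale, averages a lower value in HSC with a higher one in CLP. The estimates were -1.26 ± 0.98 for Ncf1, -1.09 ± 0.93 for Ncf4 and 0.67 ± 1.05 for Cyba. Rac1 and Rac2 had 0.04 ± 0.93 and -0.13 ± 0.93, errors that are wider than the estimates themselves. For a population difference common to both genotypes, 1 of 11230 genes passed (0.0089%), namely Ly6d, a lymphoid progenitor marker, and 608 had an unadjusted p under 0.05. None of the members was called. Their adjusted p from limma was 0.952 or more.

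Set side by side, Ncf1, Ncf4 and Rac2 were lower in the GRK6-/- library in both HSC and CLP, that is 3 of 6 genes, as were 24.1% of the 10398 genes measured in both populations. None of the 6 was lower past 2-fold in both, a pattern that 4.43% of genes showed. Cybb, Cyba and Rac1 had opposite signs in the populations, again 3 of 6, against 50.0% of genes.

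Of 12 other NADPH oxidase genes and partners, 3 had a row in any library. These were BC017643, Noxo1 and Hvcn1. Noxo1 and Hvcn1 had a row in WT HSC alone, so their direction between the HSC libraries was fixed by that and is not read as a difference. Nox1, Nox3, Nox4, Duox1 and Duox2, the other catalytic subunits of the family, had no row, and neither had Noxa1, Duoxa1, Duoxa2 and Rac3. Noxo1, an organiser subunit of the NOX1 oxidase, had 11.0 FPKM in WT HSC and Hvcn1, the voltage-gated proton channel that balances charge during the burst, 4.21 FPKM in WT HSC, with no row elsewhere. At the Noxo1 locus GRK6-/- HSC and WT CLP had a row for Tbl3 instead, and the Hvcn1 locus overlaps that of Tctn1, so these values are uncertain as well. BC017643, which RefSeq names Cybc1, codes for a chaperone needed for gp91phox and p22phox. It had 36.7 FPKM in WT HSC, 16.0 FPKM in GRK6-/- HSC, no row in WT CLP and 42.6 FPKM in GRK6-/- CLP. The library without a row was thus the one in which Cybb and Cyba were lowest. However, its annotated span overlaps that of Hexdc on the opposite strand by 68 bp, and Hexdc ran the other way, at 8.13, 53.8, 80.2 and 8.54 FPKM in the same order. The sum of the overlapping genes was 44.8, 69.8, 80.2 and 51.1 FPKM. How fragments were divided between them is not stated, so the BC017643 values are uncertain.

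Of 15 Rac exchange factors, which switch Rac on, 14 had a row, and 3 were lower past 2-fold in GRK6-/- HSC with none higher (median log2 ratio of FPKM + 1 of -0.27, against 0.05 for all genes). Those were Dock8 (-2.51), Dock1 (-1.42) and Arhgef6 (-1.41). The 14 include Vav2 and Prex2, which had a row in GRK6-/- HSC alone, at 0.0747 and 0.0453 FPKM. Their direction was fixed by that and their values were too low to pass 2-fold, but they enter the median and the share. In CLP, 3 of 12 were higher and 2 lower in GRK6-/-, with a median of 0.15, and Dock8 and Arhgef6 were on the higher side with 1.28 and 1.09. Of the 3 highest by mean level, Vav1, of the antigen and growth factor receptors, had 20.4 to 36.1 FPKM, and Dock2, a main Rac activator of blood cells, had 18.0 to 27.6 FPKM. Arhgef6, the third, ranged from 7.59 FPKM in GRK6-/- HSC to 37.5 FPKM in GRK6-/- CLP. The share past 2-fold, 3 of 14 in HSC and 5 of 12 in CLP, was below the 37.4% and 50.0% of all genes.

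Of 10 Rac inhibitors 9 had a row. Arhgdib, which holds Rac and related GTPases in the cytosol of blood cells, was the highest, with 446.9 FPKM in WT HSC, 324.3 FPKM in GRK6-/- HSC, 625.2 FPKM in WT CLP and 452.8 FPKM in GRK6-/- CLP. Its relative Arhgdia had 25.0, 63.7, 232.6 and 117.6 FPKM in the same order, and was the only inhibitor past 2-fold in HSC (log2 ratio 1.32). In CLP Arhgap1 (1.53) and Chn2 (2.09) were higher past 2-fold in GRK6-/- and none was lower. These counts, 1 of 9 in HSC and 2 of 9 in CLP, are smaller shares than the 37.4% and 50.0% of all genes. Racgap1, a GTPase-activating protein of dividing cells, kept between 42.3 and 55.0 FPKM. The median log2 ratio of the list was 0.02 in HSC and -0.37 in CLP.

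Of 18 kinases and lipid enzymes that activate the oxidase, 17 had a row, and 5 passed 2-fold in each population, 2 higher and 3 lower in GRK6-/- in HSC and the same numbers in CLP. That share, 29.4%, was below the 37.4% of all genes in HSC and 50.0% in CLP. The medians were -0.20 and 0.06. Akt1, which can phosphorylate p47phox, was flat at 68.7 to 75.9 FPKM. Mapk3, the kinase ERK1, had 40.2 FPKM in GRK6-/- CLP and 92.9 FPKM in WT CLP (log2 ratio -1.19). Rap1a, a GTPase that copurifies with the membrane core, had 73.5 to 136.7 FPKM. Pla2g4a, the phospholipase that releases arachidonic acid, was lower in both GRK6-/- libraries, with 2.87 against 12.1 FPKM in HSC (-1.76) and 14.0 against 66.6 FPKM in CLP (-2.17). Prkcb, a protein kinase C, ran in opposite directions (-1.63 in HSC, 1.69 in CLP), and Pak1, a kinase switched on by Rac, had 0.374 FPKM in WT CLP and 17.7 FPKM in GRK6-/- CLP (3.77).

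**Figure D4:**
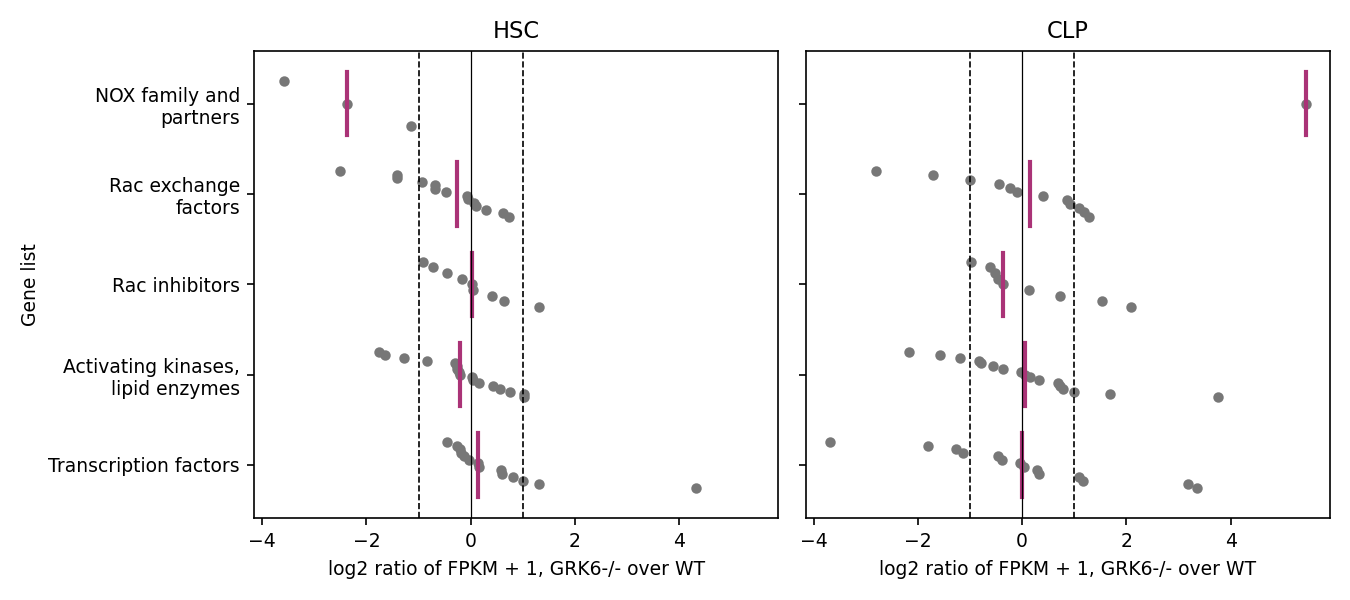
The log2 ratio of FPKM + 1, GRK6-/- over WT, of each gene in 5 lists around the oxidase in HSC (left) and CLP (right). Points are genes with a row in either library, set to 0 FPKM where the other has none, purple bars are list medians and dashed lines mark 2-fold. Most genes of the Rac and kinase lists lie between the dashed lines, and the top list has only 3 genes in HSC and 1 in CLP. In HSC that list includes Noxo1 and Hvcn1, which had a row in WT HSC alone, so its median there is no result.

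Transcription factors of phagocyte genes, 14 of 14 with a row, had 3 genes past 2-fold in HSC, all higher in GRK6-/-, and 4 higher and 4 lower in CLP. The shares were 21.4% and 57.1%, beside 37.4% and 50.0% of all genes. The medians were 0.15 and -0.00. Irf8, a factor of monocytes, dendritic cells and B cells, had 1.12 FPKM in WT HSC, 41.2 FPKM in GRK6-/- HSC, 152.2 FPKM in WT CLP and 190.3 FPKM in GRK6-/- CLP. Cebpe, a factor of late granulocyte genes, had 36.3, 40.0, 1.84 and 28.0 FPKM in that order. Its lowest library was WT CLP, as for Cybb and Cyba, but it was named after its values were seen. Any part of the listed factors in the oxidase levels was not tested. Sfpi1 had a log2 ratio of -1.27 in CLP and Cebpa of -1.80, whereas Irf1 was level at 52.2 to 68.3 FPKM.

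For each member, the genes with the most similar pattern were found by the root mean square difference of log2(FPKM + 1), centred on each gene's own mean, over the 4 libraries. With 4 values and 6816 genes, near matches are common, and they say nothing of shared function. Closest to Cybb were Fahd2a (difference 0.12), Mettl22 (0.21) and Eif2ak3 (0.22), the only 3 genes within 0.25. Closest to Cyba were Fgl2 (0.06), Nxn (0.08) and Ube4a (0.09), of 53 genes within 0.25. Ddx55, Senp2 and Ubap2 (0.08 to 0.11) lay closest to Ncf1, and Slc39a1, Cbx2 and Fam125a (0.08 to 0.09) closest to Ncf4. For Rac1 the closest were 2900073G15Rik, Dus2l and Cdkn3 (0.03 to 0.04), and 582 genes lay within 0.25. For Rac2 they were LOC624853, Sgms1 and Abhd4 (0.04 to 0.05), of 627 such genes.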

How the data were processed

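RNA was measured in 4 libraries, 1 for each of HSC and CLP in WT and in GRK6-/- mice. Sorted cells were lysed and their cDNA amplified individually, in 20 and then 10 cycles of PCR from a poly(dT) primer, before pooling. Such amplification can raise or lose transcripts of single cells. The authors aligned reads to mm9 with the Tuxedo suite (TopHat 1.4.0 in the submitters' processing notes) and deposited 1 FPKM value per gene and library, scaled to transcript length and mapped fragments, without counts or bounds. The version and settings of the quantification are not given in the sources used here.

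From the FPKM values, rows of 1 symbol were summed (no member had more than 1 row in a library), a gene without a row was set to 0, and 333 genes and joint names in rows of several genes were left out. Ratios were log2 of FPKM + 1, called at 2-fold, the fold threshold of the study, without its P. No test was possible for 1 library against 1, so calls are of size only. limma 3.58.1 (R 4.3.3) was fitted to log2(FPKM + 1) of genes with at least 1 FPKM in 1 library or more, with Benjamini-Hochberg adjustment. Fragments were estimated from the step of low values (below 0.3 FPKM, transcripts of at least 1500 bp with a single isoform, within 0.1 of 1, 2 or 3 fragments) and the longest coding transcript. They are approximate and can be too low. Scripts were tested on simulated data. Python 3.11.15, pandas 2.3.3, scipy 1.17.1 and matplotlib 3.10.9 were used.

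The members and lists were chosen with earlier results of these data known. Named genes were the members, the 3 highest of each list, list genes that a count describes, and for each member the 3 genes closest in pattern. Further genes were named after their values were seen: Dock8, Dock1, Vav2, Prex2, Pla2g4a, Prkcb, Pak1, Cebpe, Cebpa, Camp, Ngp, Lyz2, Rag1, Rag2, Ebf1, Notch1 and Hexdc. The limit of 0.25 and the minimum mean of 100 FPKM were also set then. As alternatives, the pseudocount was varied, low FPKM were filtered, values were rescaled, and the highest row per symbol and a 4-fold threshold were used. Some genes are not reported here.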

Additional observations from a re-analysis of the deposited data

Results flagged for a closer look

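Cybb and Cyba differed between the genotypes in opposite directions in HSC and in CLP. The log2 ratio of FPKM + 1, GRK6-/- over WT, was -0.60 in HSC and 4.61 in CLP for Cybb, and -0.76 in HSC and 2.11 in CLP for Cyba. The ratio of HSC over CLP also had opposite signs in the genotypes, at 2.16 in WT and -3.05 in GRK6-/- for Cybb, and at 2.31 and -0.56 for Cyba. These ratios come from the same values and are not separate evidence. With 1 library per group the difference between populations was not tested. Opposite signs of any size in HSC and CLP were found in 50.0% of 10398 genes. The share that also passed 2-fold in a population, as Cybb and Cyba did in CLP, was not computed.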

How the results depend on the processing

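Of 140 log2 ratios of single members under 6 alternative settings, 139 kept their side of the 2-fold threshold, and none past it changed sign. The exception was Cybb in WT HSC over WT CLP, at 0.66 with a pseudocount of 10. Counts of members past 2-fold were within 1.5 times their value, with these exceptions. In GRK6-/- against WT HSC, 0 members passed a 4-fold threshold, and in GRK6-/- HSC against GRK6-/- CLP 1 did. In WT HSC against WT CLP, 1 member remained with a pseudocount of 10, with genes kept only at 1 FPKM or more in both libraries, and with genes kept at 10 FPKM or more in either, since Cybb was then below the threshold or left out. In limma, the genes with a genotype difference numbered 1 with a pseudocount of 10 and 1 after rescaling (Snora70 in both). Those with a population difference numbered 0 with a pseudocount of 0.1, 0 with at least 10 FPKM in some library and 5 after rescaling (Ly6d, Blnk, Cox6a2, Hist1h2ae and Vpreb3). None was a member, and the cause of these shifts was not tested. No paired analysis was possible because the labels give no replicate numbers and each group had 1 library, beyond the population term that limma already held. No comparison that uses GRK6-/- CLP, the library with the highest erythroid and B lineage sums, could be made without it, whereas GRK6-/- against WT HSC and WT HSC against WT CLP do not use it. Depth limits Cybb in WT CLP most, at about 17 fragments.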
